A study of Mus musculus with 8 samples.

Results

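Histone lysine methyltransferases, demethylases and the Polycomb repressive complex 2 (PRC2) were described in pro-B cells with and without menin. The group was chosen by name: 51 genes were listed, and every probe set of the array that the platform annotation assigns to one of these symbols alone was taken. This gave 142 probe sets of 49 genes among 45037 probe sets of 18193 genes. No probe set is assigned here to Ash1l or Suv39h1 alone, and these are not analysed here. Of the 142 probe sets, 121 passed the filter on low values, and they represent 48 genes. The other 21 stood at the floor of the data (2.08, or within 0.3 of it) on at least 6 of 8 arrays, among them the only probe set of Kdm4d.

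Fraction B pro-B cells, early B-cell progenitors, were sorted from bone marrow as B220+ CD43+ HSA+ BP-1- cells. The 4 control mice carried floxed Men1 on both alleles and no Cre. The 4 menin-deficient mice carried the same floxed alleles with Rag1-cre, which is expressed in lymphoid progenitors. The labels give an age of 2 to 3 weeks for both groups, and each mouse gave 1 expression array. Cre was present in every menin-deficient mouse and in no control, so its effect and that of menin loss cannot be told apart.

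Lysine methyltransferases, most of them with a catalytic SET domain, place methyl groups on histone tails. Demethylases of the LSD (KDM1) and Jumonji families remove them. Methylation of H3K4 is a mark of active promoters and enhancers, H3K36 and H3K79 methylation follow transcribed genes, and H3K9 and H3K27 methylation accompany silent chromatin. Menin joins the H3K4 methyltransferase complexes of Kmt2a and Kmt2b. In early B cells PRC2, which methylates H3K27, is known for its part in rearrangement of distal immunoglobulin heavy chain segments.

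The start regions of Kdm4a and Kdm1b, both lower in menin-deficient cells, are shown. They were chosen because Kmt2a and Kmt2b carry a CXXC domain that binds unmethylated CG dinucleotides, printed here in capitals. For Prdm2, also lower, no start region was found. Each line holds the 250 bases before the annotated start, 5′ to 3′ on the gene's own strand, from RefSeq (GRCm38.p6). Kdm4a lies on the minus strand, at chr4:118180044-118180293, and Kdm1b on the plus strand, at chr13:47043249-47043498.
Kdm4a: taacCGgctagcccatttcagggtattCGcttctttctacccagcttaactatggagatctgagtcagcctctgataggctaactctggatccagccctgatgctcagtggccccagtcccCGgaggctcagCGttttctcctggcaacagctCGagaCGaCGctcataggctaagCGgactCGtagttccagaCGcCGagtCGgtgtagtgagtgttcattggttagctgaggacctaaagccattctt
Kdm1b: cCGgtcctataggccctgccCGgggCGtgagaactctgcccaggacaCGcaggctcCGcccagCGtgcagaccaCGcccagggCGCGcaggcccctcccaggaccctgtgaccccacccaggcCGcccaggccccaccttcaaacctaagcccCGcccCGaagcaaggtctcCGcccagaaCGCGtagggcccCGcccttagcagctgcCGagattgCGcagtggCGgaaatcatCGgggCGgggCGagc
The CG dinucleotide, which reads the same on both strands, was counted 12 times in the window of Kdm4a and 22 times in that of Kdm1b. Of 27025 genes with such a window, 33.8% held at least as many as Kdm4a and 14.6% at least as many as Kdm1b. Start regions were found for 39 of the 51 genes, with a median of 22 CG per window against 6 over all genes. They ran from 0 in Kdm4c to 56 in Kdm7a. No binding or methylation was measured here.

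Men1 itself fell from 9.54 ± 0.256 to 8.15 ± 0.278 (mean ± SD of deposited log2 values, n = 4 mice each), a log2 difference of -1.39 (limma adjusted p = 0.00391). Where its probe set lies relative to the floxed exons is not stated in any source used. Tested progenitor markers had a mean over 11 markers of 14.3 to 14.4 on every array. Of these Pax5 read only 9.09 to 9.48, below the median tested gene of each array (10.09 to 10.29). Among the 11 markers Dntt (0.35, limma adjusted p = 0.00442) and Igll1 (0.38, 0.0457) were higher and Rag1 was lower (-0.28, 0.0326). Of 4 tested markers of BP-1+ and later B cells, Il2ra was lower (-0.87, 0.0206). By Xist and Eif2s3y, 1 control (replicate 3) and 2 menin-deficient mice (replicates 1 and 2) were male. A fit that leaves out control replicate 3 therefore has no male control. Some markers of other cells were higher in menin-deficient arrays: the mean of 5 T cell markers was 7.77 to 8.003 against 6.35 to 6.60 in control, that of 5 NK cell markers 8.01 to 8.75 against 7.16 to 7.73, and that of 5 plasmacytoid dendritic cell markers 8.14 to 8.80 against 7.04 to 7.46. Of these lists 4 of 5, 2 of 5 and 2 of 5 tested markers rose, and 3 further T cell markers did not pass the filter. For these and the other marker counts, the background was 16.2% of all tested genes higher and 5.17% lower. The mean of 8 monocyte, macrophage and granulocyte markers was 8.76 to 9.76 against 8.64 to 9.21, and 2 of the 8 rose. Their part in the results below was not tested. Of 9 markers of dividing cells 1 fell and 0 rose by limma (1 and 2 at an unadjusted p under 0.05). At that unadjusted p, 8.68% of all tested genes fell and 27.4% rose. In RNA from a sorted population, fewer cells of a type and less RNA per cell cannot be told apart.

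On the brightest probe set of each gene 5 of the methylation enzymes changed, and the largest difference there was the fall of Kdm4a. Testing the brightest probe set of each gene in a fit over 11885 genes, 2 of 48 were higher (Smyd3 and Ehmt2), 3 were lower (Kdm4a, Prdm2 and Kdm1b) and 43 did not pass an adjusted p of 0.05. Among all tested genes 21.3% passed, 16.2% higher and 5.17% lower. Leaving out control replicate 3, the only control male, gave 6 higher genes (Kdm1a, Kdm2b, Ehmt2, Kdm4c, Setdb1 and Smyd3). Leaving out control replicate 1, 2 or 4 or menin-deficient replicate 3 or 4 gave 1. Leaving out control replicate 2 gave 5 lower genes, and leaving out other single arrays 2 to 4. The count over all tested genes also moved with the array left out, so the shares above are not the background of these counts. Only Kdm4a passed with a difference of at least 2-fold, as did 3.34% of all tested genes (2.56% higher and 0.782% lower). In 34 of the 48 the difference was smaller than 0.3 on the log2 scale. The median difference of the 48 was 0.10, close to 0.11 for all tested genes, with a range of -1.88 to 0.64. The groups did not overlap in 5 genes that were higher and 4 that were lower, where the background was 20.3% and 6.06% of tested genes (26.3% in all).

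Scaling bears on these counts. The typical tested gene lay 0.11 above control in menin-deficient arrays, so each array was also centred on its median tested gene, which takes 0.13 from every difference. Relative to that centre 1 gene was higher, Smyd3, and 8 were lower: Kdm4a, Prdm2, Kdm1b, Jmjd1c, Kmt2c, Kmt2d, Kdm5a and Kdm5b. The background was then 7.67% of genes higher and 8.17% lower (15.8% in all).

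**Figure D1:**
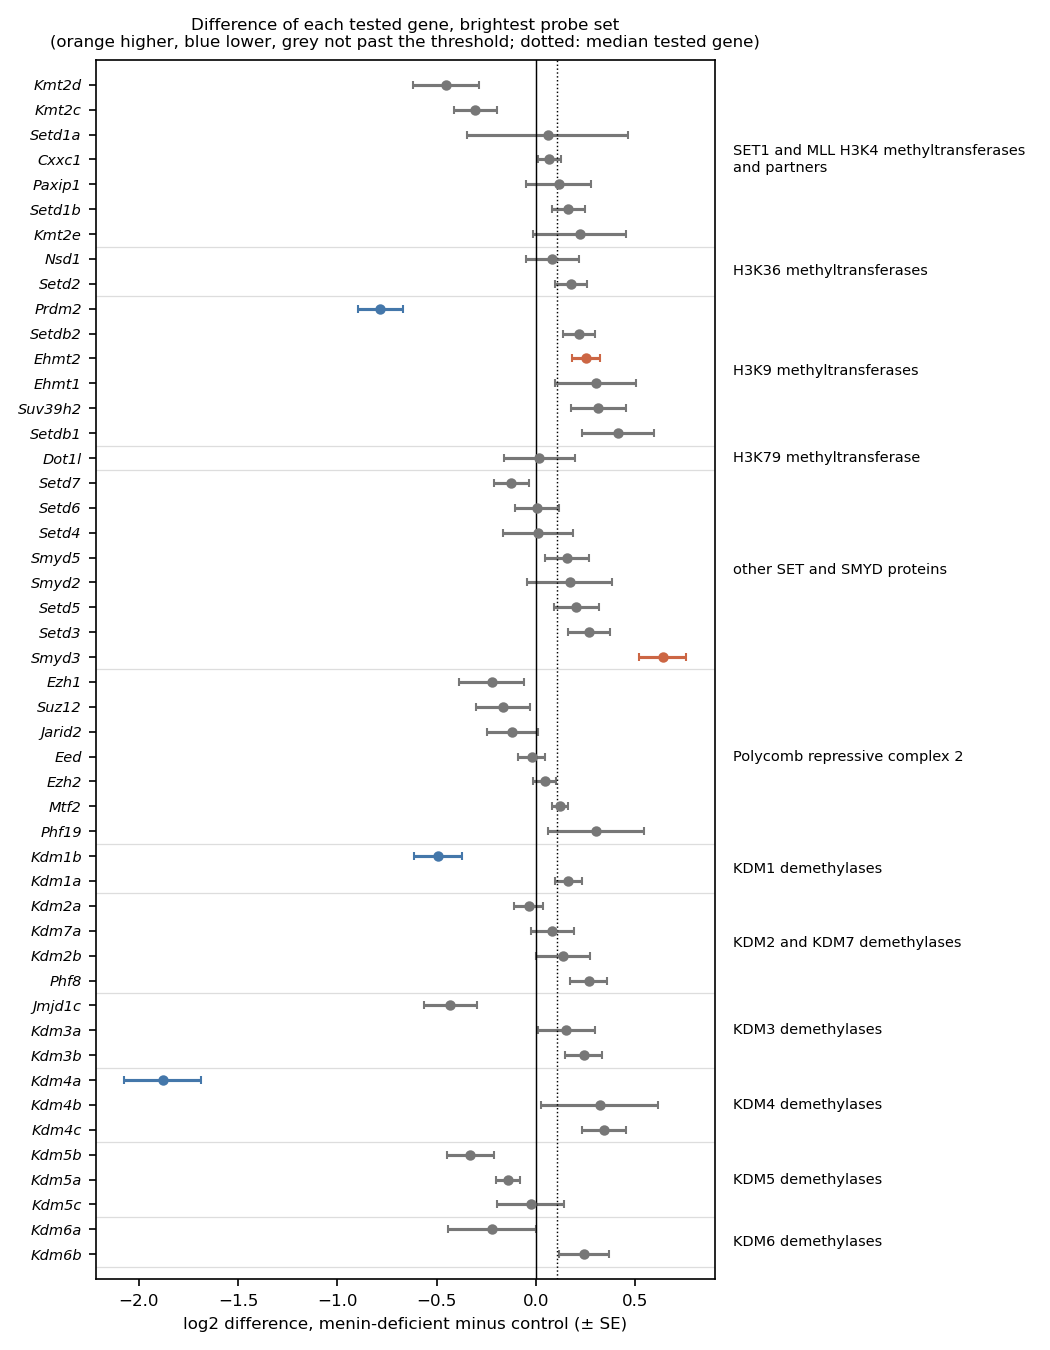
Log2 difference between menin-deficient and control arrays (horizontal axis, ± SE, 4 arrays each) for the brightest probe set of each of 48 genes, grouped by role; the dotted line marks the median tested gene at 0.11. Kdm4a stands at -1.88, Prdm2 at -0.78 and Smyd3 at 0.64, while most genes lie close to the median.

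Among demethylases, 17 genes were tested by limma, 0 were higher and 2 were lower, against 16.2% and 5.17% of all tested genes. At an unadjusted p under 0.05 these counts were 4 and 5, against 27.4% and 8.68% of all tested genes. The KDM4 enzymes remove methyl groups from H3K9 and H3K36. Kdm4a read 8.03, 7.95, 7.25 and 7.92 in control and 5.98, 5.70, 6.17 and 5.79 in menin-deficient arrays (here and below in the order of the replicate numbers). The groups lay more than 1 log2 unit apart, and control replicate 3 was the lowest of its group. The difference was -1.88 (SE 0.19, limma adjusted p = 0.00221), or 3.68-fold. It kept its call under all 20 alternatives, with adjusted p values up to 0.0301. It rests on a single probe set, 1435340_at, since the other one had a mean of 2.23 in control and lay at the floor. Its relatives gave positive differences that did not pass. Kdm4c differed by 0.34 (95% interval 0.08 to 0.60, adjusted p = 0.0666) and Kdm4b by 0.32 (-0.37 to 1.02, adjusted p = 0.478). Without control replicate 3, the only control male, Kdm4c differed by 0.44 and passed (adjusted p = 0.0176).

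The LSD family gave opposite signs. Kdm1b (LSD2), which removes H3K4 methyl groups, read 11.91, 11.42, 11.44 and 11.65 in control and 11.04, 11.23, 11.02 and 11.16 in menin-deficient arrays. Every menin-deficient array lay below every control, a difference of -0.49 (SE 0.12, limma adjusted p = 0.0278). The call was lost without control replicate 4 or without any single menin-deficient replicate, with adjusted p values between 0.0528 and 0.0671, and with sex in the model (0.0509). Kdm1a (LSD1) differed by 0.16 on its brightest probe set (adjusted p = 0.133). Its other probe set, 1426761_at, read 11.35, 11.45, 11.63 and 11.52 in control and 11.79, 11.79, 11.89 and 11.80 in menin-deficient arrays. That probe set was higher by 0.33 when every probe set was tested on its own (adjusted p = 0.0186), but not after centring (0.088) or without menin-deficient replicate 2 (0.0506).

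In the KDM3 family, which acts on H3K9, Jmjd1c differed by -0.43 (SE 0.13, adjusted p = 0.0612) and passed after centring (0.0241). It also passed on leaving out control replicate 2 (0.0418) or menin-deficient replicate 1 (0.0269). Its probe set 1439998_at read 10.01, 9.996, 10.55 and 9.98 in control and 9.52, 9.14, 9.57 and 9.26 in menin-deficient arrays. The groups were apart, and the probe set was lower on its own by -0.76 (adjusted p = 0.0224). That call was lost without control replicate 1 or menin-deficient replicate 2 or 4, with adjusted p values up to 0.0637. Kdm3a and Kdm3b gave differences of 0.15 and 0.24, which did not pass.

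The KDM5 enzymes remove H3K4 methylation, the mark that menin complexes place. None of their 3 genes passed on the brightest probe set, and all 3 differences were negative. Kdm5b read 10.11, 9.68, 10.06 and 9.67 in control and 9.55, 9.49, 9.66 and 9.49 in menin-deficient arrays. Its difference of -0.33 (95% interval -0.61 to -0.05, adjusted p = 0.0914) passed after centring (adjusted p = 0.031), but 2 of its other 3 probe sets differed by 0.17 and 0.03. Kdm5a differed by -0.14 (adjusted p = 0.135), with an adjusted p of 0.045 after centring. Among the CXXC and PHD enzymes, Kdm2a, Kdm2b, Kdm7a and Phf8 differed by -0.04 to 0.27, and none passed. Kdm6b, which removes H3K27 methylation, differed by 0.24 (-0.05 to 0.54, adjusted p = 0.211).

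**Figure D2:**
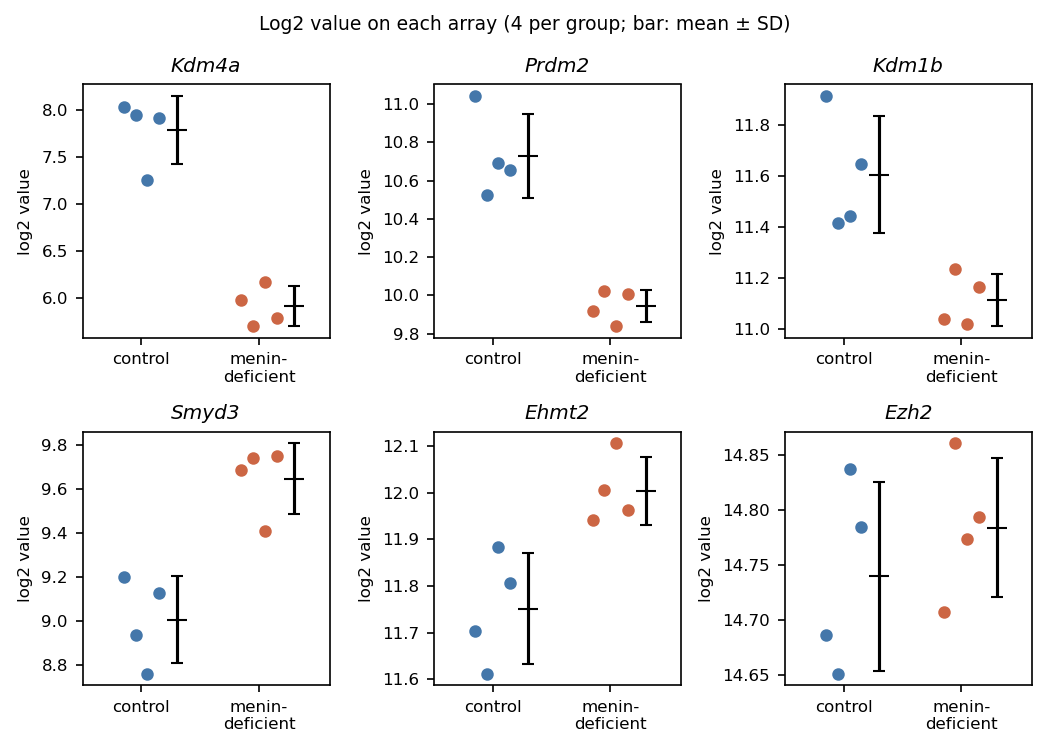
Deposited log2 value on each array (vertical axis, its range differs between panels) for the 5 genes past the threshold and Ezh2, with the mean ± SD of 4 arrays. The groups are apart in Kdm4a, Prdm2, Kdm1b, Smyd3 and Ehmt2 and overlap in Ezh2.

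Kdm6a (UTX) and Kdm5c are X-linked genes known to escape X inactivation, and the groups held unequal numbers of males, so their values are given by sex. Kdm6a on its brightest probe set read 12.37, 12.21, 11.65 and 12.20 in control and 11.51, 11.66, 12.12 and 12.27 in menin-deficient arrays. The 3 low values belong to the 3 male mice. The male minus female difference was -0.61 in a model with the group (SE 0.07, limma adjusted p = 0.317 over all probe sets). The difference between groups was -0.22 (adjusted p = 0.515) without sex and -0.07 with it. The dimmer probe set 1445198_at read 10.42, 10.39, 8.76 and 10.13 in control and 8.14, 8.57, 9.34 and 9.58 in menin-deficient arrays. Here menin-deficient females lay below control females, and the group difference with sex in the model was -0.69 (adjusted p = 0.0371). Another probe set of Kdm6a, 1427235_at, differed by -0.47 in that model (adjusted p = 0.0471). Without sex in the model neither passed (0.193 and 0.142).

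For Kdm5c the brightest probe set differed by -0.03 between groups (adjusted p = 0.944), with a male minus female difference of -0.45 that did not pass (adjusted p = 0.397). The probe set 1444158_at read 11.31, 11.18, 11.12 and 11.12 in control and 10.15, 10.03, 10.87 and 10.67 in menin-deficient arrays. The control male was level with control females there, and all menin-deficient arrays were lower, most of all the males. On its own this probe set was lower by -0.75 (adjusted p = 0.0407, 0.0328 with sex in the model). Leaving out any array except menin-deficient replicate 3 lost the call, with adjusted p values up to 0.103.

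**Figure D3:**
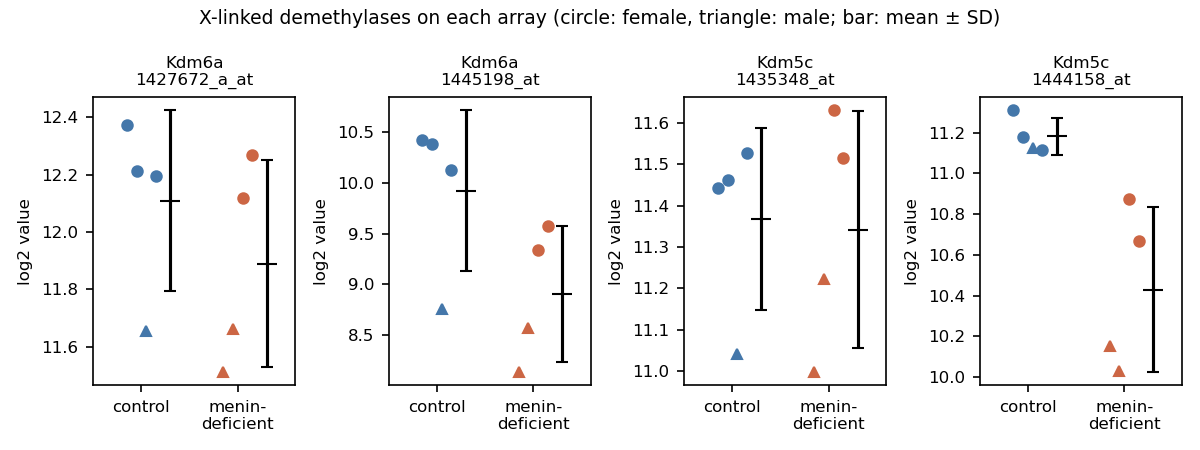
Log2 value on each array (vertical axis, ranges differ between panels) for 2 probe sets each of Kdm6a and Kdm5c; circles are female mice, triangles male mice, and bars the mean ± SD of 4 arrays. Males are low in both groups on the brightest probe sets (left panel of each gene), and 1444158_at of Kdm5c is lower in all 4 menin-deficient arrays.

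Of the methyltransferases and their partners, 24 genes were tested, of which 2 were higher and 1 lower, against 16.2% and 5.17% of all tested genes. Prdm2 (RIZ), a zinc finger protein with an H3K9 methyltransferase domain, read 11.04, 10.53, 10.69 and 10.65 in control and 9.92, 10.02, 9.84 and 10.01 in menin-deficient arrays. Every menin-deficient value was lower, with a difference of -0.78 (SE 0.11, limma adjusted p = 0.00558), or 1.72-fold. Its second bright probe set was also apart between groups, at -0.40 (adjusted p = 0.0579 on its own, 0.0199 after centring). Leaving out single arrays kept the call, with adjusted p values up to 0.0189. Restricting the fit to females (3 control and 2 menin-deficient mice) gave -0.82, not past the threshold (0.0826).

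Smyd3, a SET and MYND domain methyltransferase, read 9.20, 8.94, 8.76 and 9.13 in control and 9.68, 9.74, 9.41 and 9.75 in menin-deficient arrays. It was higher by 0.64 (SE 0.12, limma adjusted p = 0.0129), or 1.56-fold, and remained so after centring (adjusted p = 0.032). A dimmer probe set differed by 0.15, and the mean of both did not pass (adjusted p = 0.326), nor did female mice alone (0.125). Ehmt2 (G9a), which places H3K9 methylation with Ehmt1, was higher by a smaller amount, 0.25 (SE 0.07, limma adjusted p = 0.0423). Its values were 11.70, 11.61, 11.88 and 11.81 in control and 11.94, 12.01, 12.11 and 11.96 in menin-deficient arrays. The groups were apart by a narrow margin. The call was lost under 16 of 20 alternatives, after centring (0.13, adjusted p = 0.212) and without any single array other than control replicate 3 (adjusted p up to 0.103).

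The other H3K9 enzymes did not pass on their brightest probe sets. Ehmt1 differed by 0.30, Setdb2 by 0.22, Suv39h2 by 0.31 and Setdb1 by 0.41, of which Setdb2 alone had groups apart. Setdb1, which works with KRAB zinc finger proteins at retroelements, read 10.96, 11.07, 11.83 and 11.33 in control and 11.64, 11.74, 11.75 and 11.70 in menin-deficient arrays. Control replicate 3, the only control male, lay above the menin-deficient arrays. Without it Setdb1 was higher by 0.59 (adjusted p = 0.0128, against 0.148 with it). Whether sex had a part in this was not tested.

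Close relatives of the enzymes that menin binds were examined next. Kmt2c and Kmt2d, which place H3K4 monomethylation at enhancers, differed by -0.30 (95% interval -0.56 to -0.05, adjusted p = 0.0906) and -0.45 (-0.84 to -0.06, adjusted p = 0.0954). Kmt2d read 10.97, 11.25, 11.68 and 11.60 in control and 10.88, 10.97, 11.07 and 10.76 in menin-deficient arrays. The overlap came from control replicate 1, without which Kmt2d differed by -0.59 (adjusted p = 0.036). Both genes were lower after centring (adjusted p = 0.0331 and 0.0357). Kmt2c was lower without control replicate 2 as well (adjusted p = 0.0325). The SET1 enzymes Setd1a and Setd1b and their CXXC partner Cxxc1 differed by 0.06, 0.16 and 0.07, Paxip1 by 0.12 and Kmt2e by 0.22, none past the threshold. For Kmt2e control replicate 3 was low, at 12.38 against 13.13 to 13.49 in the other controls. Its probe sets 1434704_at, 1439108_at and 1439107_a_at differed by -0.32, -0.42 and -0.52 (limma adjusted p = 0.0604, 0.102 and 0.184). Of these, 1434704_at and 1439108_at passed after centring (0.0191 and 0.0405). For Setd1a the interval was wide, from -0.90 to 1.02, whereas for Cxxc1 it ran from -0.07 to 0.21.

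Setd2, the enzyme of H3K36 trimethylation, differed by 0.18 (-0.01 to 0.37, adjusted p = 0.164), and Nsd1 by 0.08. Dot1l, the only known H3K79 methyltransferase, differed by 0.02 (-0.40 to 0.44, adjusted p = 0.974). Setd3, Setd4, Setd5, Setd6, Setd7, Smyd2 and Smyd5 differed by -0.12 to 0.27, and none passed.

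Of the PRC2 genes 7 were tested by limma on their brightest probe sets and 0 passed, where 21.3% of all tested genes did. At an unadjusted p under 0.05, 1 was higher, Mtf2, and 0 were lower, against 27.4% and 8.68% of all tested genes. Ezh2, its main catalytic subunit in dividing cells, read 14.69, 14.65, 14.84 and 14.78 in control and 14.71, 14.86, 14.77 and 14.79 in menin-deficient arrays. The groups overlapped, and the 95% interval of the difference was narrow, -0.09 to 0.18. Eed, the subunit that reads methylated H3K27, differed by -0.02 (-0.18 to 0.14) and Suz12, a core scaffold, by -0.17 (-0.49 to 0.15). Ezh1 differed by -0.22 (-0.61 to 0.16). Of the accessory subunits, Jarid2 differed by -0.12 and Phf19 by 0.30, and Mtf2 by 0.12 with groups apart (adjusted p = 0.0738), a difference as large as the shift of the median gene.

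Probe sets other than the brightest gave another picture, with more lower than higher calls. Brightness was ranked by the mean over all 8 arrays, so a fall in menin-deficient arrays itself moves a probe set down that order. The same ranking made the background class. In control alone, 1422979_at of Suv39h2 (9.52 against 9.44) and 1437206_at of Setd5 (10.85 against 10.75) lay above the probe sets ranked brightest. With each of the 121 probe sets tested on its own in a fit over 22200, 13 were lower (10.7%, background 5.01%) and 2 higher (1.65%, background 10.8%), where 15.8% of all probe sets passed. Leaving out menin-deficient replicate 2 or 4 gave 6 lower and leaving out control replicate 4 gave 8. Leaving out control replicate 3 gave 7 higher and leaving out menin-deficient replicate 2 gave 1. The shares of all probe sets in these fits are not given here, so the counts show only how far the calls move. Among the 73 that were not the brightest of their gene, 10 were lower and 1 higher. The background in that class was 5.52% lower and 6.85% higher, and 50 of the 73 differences were negative, 22 positive and 1 was 0. Over all genes 46.4% of that class were negative. After centring 21 of the 121 were lower and 1 higher (background 8.47% and 5.38%, 13.8% in all). Probe sets of a gene share its transcripts and are not replicates, and where each lies in its transcript was not stated in any source used. The 13 lower probe sets belonged to 12 genes, of which 9 had not passed on the brightest probe set. In 4 of these 9 the brightest probe set differed in the other direction, though in Setd6 by only 0.01.

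Suz12 showed the widest spread. Its 3 brightest probe sets differed by -0.17, -0.12 and -0.15. The dimmer 1420022_s_at read 9.43, 9.82, 9.57 and 9.29 in control and 8.68, 8.50, 7.94 and 7.49 in menin-deficient arrays, lower by -1.37 (adjusted p = 0.0186). The groups were apart, and leaving out single arrays kept the call, with adjusted p values up to 0.0494. The probe set 1449661_at, read at 6.05 to 6.85 in control and 3.60 to 5.60 in menin-deficient arrays, was lower by -1.88 (adjusted p = 0.03), a call lost on leaving out any of 6 arrays (adjusted p up to 0.0814): each control replicate and menin-deficient replicates 2 and 4. Another dim probe set, 1420020_at, with a mean of 7.43 in control, differed by -0.19 and did not pass (adjusted p = 0.515).

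Jarid2, which recruits PRC2, read 11.29, 11.15, 11.16 and 11.05 in control and 10.59, 10.62, 10.70 and 10.67 in menin-deficient arrays on 1422697_s_at. Both groups were tight and apart, and the probe set was lower by -0.52 (SE 0.06, adjusted p = 0.00381). Its brightest probe set, 1422698_s_at, overlapped. Suv39h2, which places H3K9 methylation in heterochromatin, read 9.48, 9.66, 9.60 and 9.35 in control and 8.99, 8.87, 8.84 and 9.01 in menin-deficient arrays on 1422979_at. This was lower by -0.59 (adjusted p = 0.00645), where the probe set with the highest mean differed by 0.31.

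Setdb1 on 1458215_at read 6.56, 6.72, 6.84 and 6.89 in control and 6.36, 5.96, 5.96 and 6.03 in menin-deficient arrays, lower by -0.67 (adjusted p = 0.0124), against 0.41 on the brightest. Setd5 on 1437206_at was lower by -1.11 (adjusted p = 0.0289), against 0.20, and Setd6, a methyltransferase of the NF-kB subunit RelA, on 1428797_at by -0.70 (adjusted p = 0.0402), against 0.01. Kmt2c on 1457193_at was lower by -0.56 (adjusted p = 0.0413), with its brightest probe set at -0.30 and the others at 0.20 and 0.06. On leaving out single arrays, the calls of Jarid2, Suv39h2 and Setdb1 were kept, with adjusted p values up to 0.0408. Those of Setd5, Setd6 and Kmt2c were lost without 4, 6 and 7 of the 8 arrays, with adjusted p values up to 0.0818, 0.108 and 0.0938. For Setd5 these were control replicate 1 and menin-deficient replicates 1, 2 and 4. For Setd6 they were control replicates 2, 3 and 4 and menin-deficient replicates 2, 3 and 4, and for Kmt2c all but control replicate 3.

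**Figure D4:**
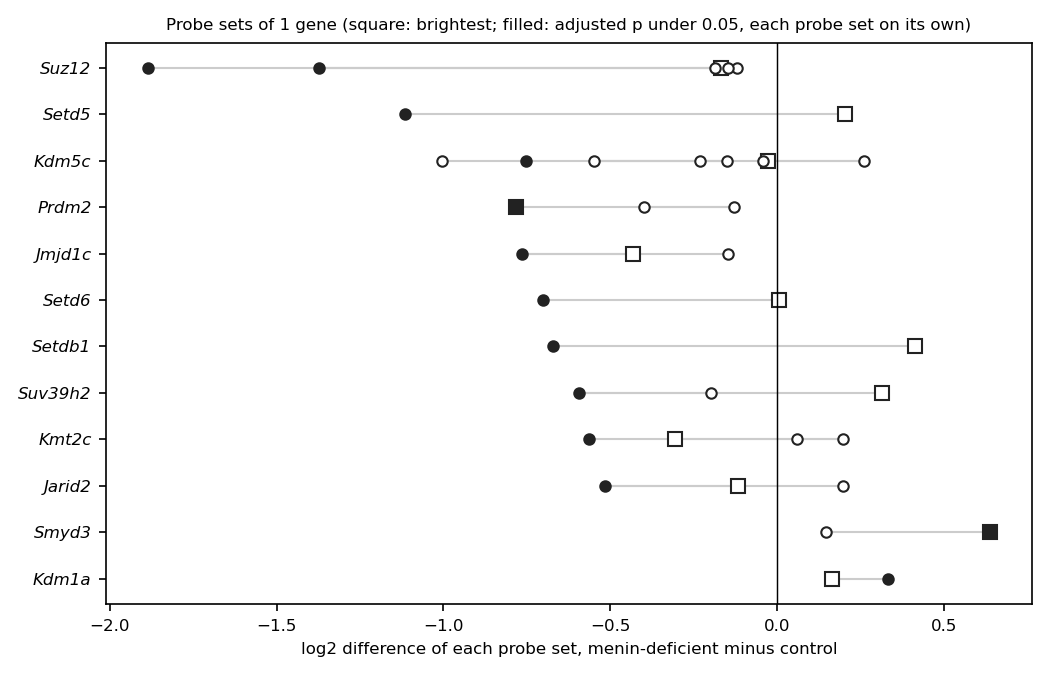
Log2 difference (horizontal axis) of every tested probe set of the 12 genes with several probe sets and at least 1 past the threshold on its own; squares are the brightest probe set of a gene and filled symbols have an adjusted p under 0.05. In Setd5, Setdb1 and Suv39h2 the filled probe set lies below 0 and the square above it, and in Suz12 the probe sets run from -1.88 to -0.12.

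Among 34 genes with several tested probe sets, 12 had differences of 1 sign and 22 of both. Signs were counted whatever the size of the difference. Kdm5a is among the 22 only through a difference of 0.005 on 1441318_at. A gene with more probe sets has more chances of both signs. The share of all genes with both signs is not given here, so no excess of mixed signs can be read from this count. Of the 13 lower probe sets 11 were plain _at sets and 2 were _s_at sets, which can match several transcripts.

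Genes of the same pathways outside the 51 were counted in 3 lists, against the background of 16.2% of all tested genes higher and 5.17% lower. Of 17 other lysine methyltransferases, demethylases and Jumonji proteins, 1 rose and 1 fell. Setmar, a SET domain protein, was 0.71 higher (limma adjusted p = 0.0238). Hspbap1, a JmjC domain protein read by an _x_at set, fell by 0.81 (limma adjusted p = 0.00219). It went from 7.47 ± 0.122 to 6.66 ± 0.119 (SD, n = 4 each). Of 11 proteins of the menin and MLL complexes or their partners, Ash2l, a core subunit, rose by 0.47 (adjusted p = 0.00559), while Men1 and Kansl1, a subunit of an acetyltransferase complex, fell (Kansl1 by 0.59, adjusted p = 0.0473). Of 20 other PRC2 and PRC1 proteins 2 rose and 0 fell by limma. At an unadjusted p under 0.05, 5 rose and 1 fell, against 27.4% and 8.68% of all tested genes. The PRC1 subunits Phc2 and Pcgf6 were 0.46 and 0.45 higher (limma adjusted p = 0.0193 and 0.0342), the latter not after centring (0.114).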

How the data were processed

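RNA of sorted pro-B cells was amplified, labelled with biotin and hybridised to Affymetrix mouse arrays, per the labels' protocols. The authors deposited values between 2.08 and 17.4, which that range shows to be log2. MAS5 and GCRMA both stand in the submitters' processing notes, and no source used here says which of them gave the values. Groups and replicate numbers come from the titles.

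A probe set was kept where it exceeded the 40th percentile of an array in 4 or more of the 8. The kept probe set with the highest mean stood for its gene (11885 genes). In a second fit each kept probe set of 1 gene symbol was tested on its own (22200). One probe set assigned to Kdm6b and another gene was left out. Groups were compared with limma 3.58.1 (R 4.3.3), without covariates, with Benjamini-Hochberg adjustment over all features and a threshold of 0.05. Intervals are 95% and unadjusted. Genes described in full were those past the threshold on any probe set, the 5 largest differences not past it and enzymes chosen by name, and of the pathway lists up to 4 past the threshold by lowest p; the other members are given by their difference. The fit was tested on simulated data. Genes, lists and the naming rule were chosen with earlier results of these data known. Alternatives were other normalizations, filters, probe set choices, eBayes settings, array weights, sex, a replicate block and leaving out each array. Those on every probe set were added after seeing the data. The number of arrays limits the precision.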

Additional observations from a re-analysis of the deposited data

Results flagged for a closer look

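In 5 of the 48 tested genes 1 array stood apart from the other 3 of its group on the brightest probe set. These are 5 of 96 groups (2 for each gene), or 5.21%. The rule is set for chance to give about 1 in 20, and over all tested genes it found an array apart in 11.9% of groups. Control replicate 3 read 7.25 in Kdm4a (others 7.92 to 8.03), above all menin-deficient arrays, and 13.3 in Kdm2b (others 12.7). Control replicate 2 read 10.5 in Setd3 (others 10.8 to 10.9). Menin-deficient replicate 1 read 11.3 in Setd7 (others 11.5 to 11.6), and menin-deficient replicate 4 read 8.81 in Dot1l (others 8.29 to 8.38).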

How the results depend on the processing

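The count of higher genes among the 48 was 2 and became 1 with quantile normalization, centring, no filter, a 60th percentile filter, trended and robust eBayes, the replicate block, sex as a covariate and female mice alone, and 7 with array weights. Leaving out single arrays gave 1 to 6, the highest without control replicate 3. The count of lower genes was 3 and became 8 with centring, 5 with the mean over probe sets, 12 with every probe set on its own and 1 in female mice alone. In the count of 12 the probe set with the lowest p stood for each gene. That gives genes with several probe sets more chances to pass, and the share of all genes lower under that rule is not given here. Leaving out single arrays gave 2 to 5, the highest without control replicate 2. All tested genes past the threshold numbered 2536, and 1673 without a filter, 1328 with the replicate block and 639 in female mice alone. Leaving out single arrays gave 1413 (without menin-deficient replicate 2) to 2269, with 1622 without control replicate 1.

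With every probe set on its own, 2 were higher and 13 lower. Centring gave 1 and 21, the replicate block 1 and 5, and female mice alone (3 against 2) 0 and 1 by limma, the latter Kdm4a, with 13 and 18 of 121 at an unadjusted p under 0.05 (17% and 8.17% of all probe sets). Leaving out single arrays gave 1 to 7 higher (1 without menin-deficient replicate 2, 7 without control replicate 3). It gave 6 to 11 lower (6 without menin-deficient replicate 2 or 4, 8 without control replicate 4). Shares of all probe sets are not given for the fits that left out an array. Arrays with the same replicate number did not deviate together (correlations -0.107, -0.313, -0.171 and 0.0459 for numbers 1 to 4). The titles give only the number, and a shared litter or processing day was not tested.

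Differences that turned past the threshold were those of Setdb1 (-0.67), Suv39h2 (-0.59), Setd5 (-1.11) and Setd6 (-0.70) with every probe set on its own, and Setd6 (-0.70) without _x_at and _s_at sets. In each another probe set replaced the brightest. With every probe set on its own, the one with the lowest p stood for its gene. Without _x_at and _s_at sets, the brightest of those that remained did. For the other changes the cause was not tested, except that female mice alone left 5 arrays.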
